A study of Mus musculus with 8 samples.

Results

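The nuclear-encoded subunits of the respiratory chain were examined in label-retaining and non-label-retaining biliary cells of the mouse liver. The 47 genes were taken by name, as subunits of the chain, and comprise 28 subunits of complex I, 4 of complex II, 7 of complex III and 8 of complex IV. They were read among the 46603 genes of the count table, and all 47 were detected in every library, with counts between 41 and 4211. The 8 libraries came from 4 mice (JV602, JV621, JV624 and JV6314), by RNA-seq of sorted liver cells. Each mouse gave 1 library of EGFP+EpCAM+CD45- cells, called LLRCs (liver label-retaining cells), and 1 library of EGFP-EpCAM+CD45- cells, called non-LRC cells. All mice were R26rtTA het/H2B-EGFP het on a mixed C57BL/6 and CBA background, so both groups carried both transgenes. The transactivator stands in the ubiquitously active Rosa26 locus, doxycycline was given up to postnatal day 5, and the cells were sorted at 8 weeks of age. Divisions dilute the histone 2B-EGFP label, and a cell that divided seldom stayed green. The transgene is also expressed without doxycycline in hematopoietic cells, which the sort was set to exclude by CD45.

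The respiratory chain passes electrons from NADH and succinate to oxygen in the inner mitochondrial membrane. Complex I (NADH dehydrogenase) and complex II (succinate dehydrogenase) reduce ubiquinone, complex III (cytochrome bc1) passes the electrons to cytochrome c, and complex IV (cytochrome c oxidase) passes them to oxygen. Complexes I, III and IV pump protons, and ATP synthase uses the gradient. Most subunits are encoded in the nucleus and imported, while the catalytic core of complex IV and the proton-pumping core of complex I include subunits encoded in mitochondrial DNA. Bile duct cells use ATP for the secretion of bicarbonate and chloride.

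Total counts lay between 7860021 and 9851819 in the LLRC libraries and between 4670132 and 8056103 in the non-LRC libraries, and the numbers of genes detected lay between 18488 and 20430 and between 14234 and 18930. Levels are given as normalized counts (CPM), which are counts divided by the TMM-scaled total of the library and multiplied by 1000000. The cholangiocyte markers were present in every library, with summed levels between 114558 and 221605 CPM in LLRCs against between 66248 and 162783 CPM in non-LRC cells, most of it the secreted matrix protein Spp1. Markers of endothelial cells summed to between 28.4 and 51.6 CPM in LLRCs against between 170.7 and 559.8 CPM in non-LRC cells. Hepatocyte markers summed to between 2889 and 3236 CPM in LLRCs against between 2107 and 6769 CPM in non-LRC cells. Leukocyte markers summed to between 38.2 and 94.9 CPM over the 8 libraries, and Ptprc, which encodes CD45, lay between 0.485 and 6.55 CPM in LLRCs and was at 0 in all non-LRC libraries but that of JV6314 (1.38 CPM). The unadjusted p of Ptprc in the edgeR test was 0.0468, higher in LLRCs, and the adjusted p 0.957. The part of such cells in the levels of the subunits was not tested.

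No subunit of the respiratory chain passed the test between LLRCs and non-LRC cells. In edgeR's quasi-likelihood test with Benjamini-Hochberg adjustment over the 13605 genes tested, 0 of the 47 subunits passed an adjusted p of 0.05, and the share over all genes tested was 0%. The edgeR exact test, limma voom and the DESeq2 Wald test also called 0 of the 47, where they called 1.13%, 0% and 1.62% of all genes, so a count of 0 among 47 is close to the share over all genes. The smallest edgeR adjusted p among the subunits was 0.841, for Uqcrq. Uqcrq was also the 1 subunit with an unadjusted p under 0.05, and it was lower in LLRCs. Over all genes tested, 3.56% had such a p with a lower level in LLRCs against 1.6% with a higher level. In 0 of the 47 did every LLRC library lie below every non-LRC library, against 1.91% of all genes, and in 0 did every LLRC library lie above, against 2.15%. With 4 libraries in each group a two-sided exact permutation test cannot give a p below 0.029, and the smallest among the 47 was 0.114, for Uqcrq.

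The estimated fold changes were small. On the log2 scale, LLRC over non-LRC, they ranged from -1.20 for Uqcrq to 0.35 for Ndufs1, and the second lowest was -0.44 for Uqcrfs1, the Rieske iron-sulfur protein of complex III. In 46 of the 47 the size of the fold change was under 0.5, against 61.3% of all genes tested and 69.5% of the 5536 genes with a mean level at or above that of the lowest subunit. The 95% interval of the fold change lay between -1 and 1 for 23 subunits and reached past one of those bounds for the other 24, and of those 24 intervals all but that of Uqcrq also held 0. The lowest bound was -2.24 and the highest was 1.09. The median fold change of the 47 was -0.17, with 35 below 0 and 12 above 0. The median over all genes tested was -0.01, with 51.1% below 0. Without the non-LRC library of JV624, or without that of JV6314, 26 of the 47 were below 0 and the medians were -0.05 and -0.03. Without that of JV621 the shift was larger, with 38 below 0 and a median of -0.25.

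**Figure D1:**
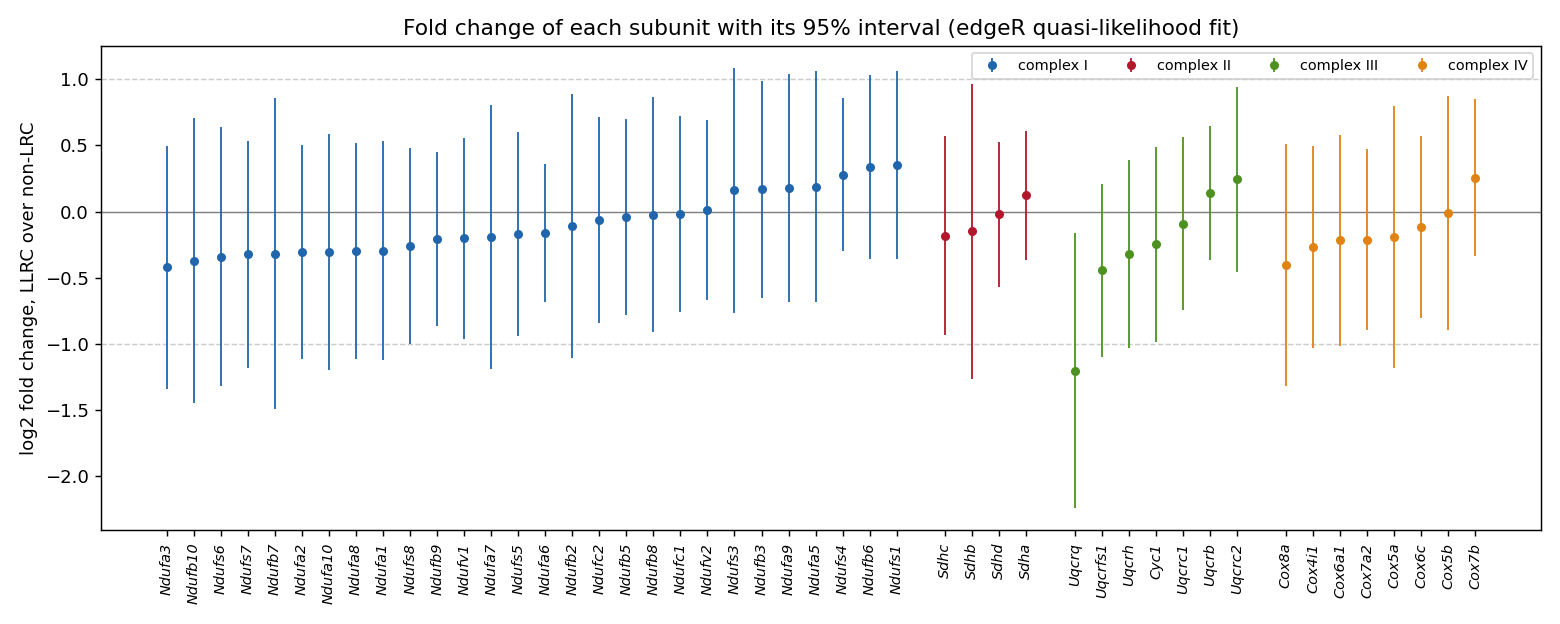
The log2 fold change of each of the 47 subunits, LLRC over non-LRC, is plotted by complex and ordered by size within it; points are the estimates and bars the 95% intervals of the edgeR quasi-likelihood fit over 4 libraries per group. The interval of Uqcrq, from -2.24 to -0.16, is the only one that leaves out 0, and its adjusted p was 0.841.

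The levels of the subunits differed among themselves far more than between the groups. Divided by the exon length, the mean level over the 8 libraries ran from 3.90 CPM per kilobase for Ndufb2 to 267.1 CPM per kilobase for Ndufb6, a 68.4-fold range with a median of 43.1. The median level per kilobase was 38.7 for complex I, 85.8 for complex II, 43.1 for complex III and 70.2 for complex IV. The order of the 47 levels was alike in the groups, with a Spearman correlation of 0.975 between the group means and between 0.850 and 0.985 between pairs of libraries, which share exon lengths and annotation. The exon length covers the bases of all annotated transcripts of a gene, which is 8086 bases for Ndufs1 against a median transcript of 826 bases, so levels per length of single genes depend on it. With the median transcript length in its place, Ndufb6 and Cox7b remained the highest of complexes I and IV, but Sdha and Uqcrc1 took the places of Sdhd and Uqcrb.

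**Figure D2:**
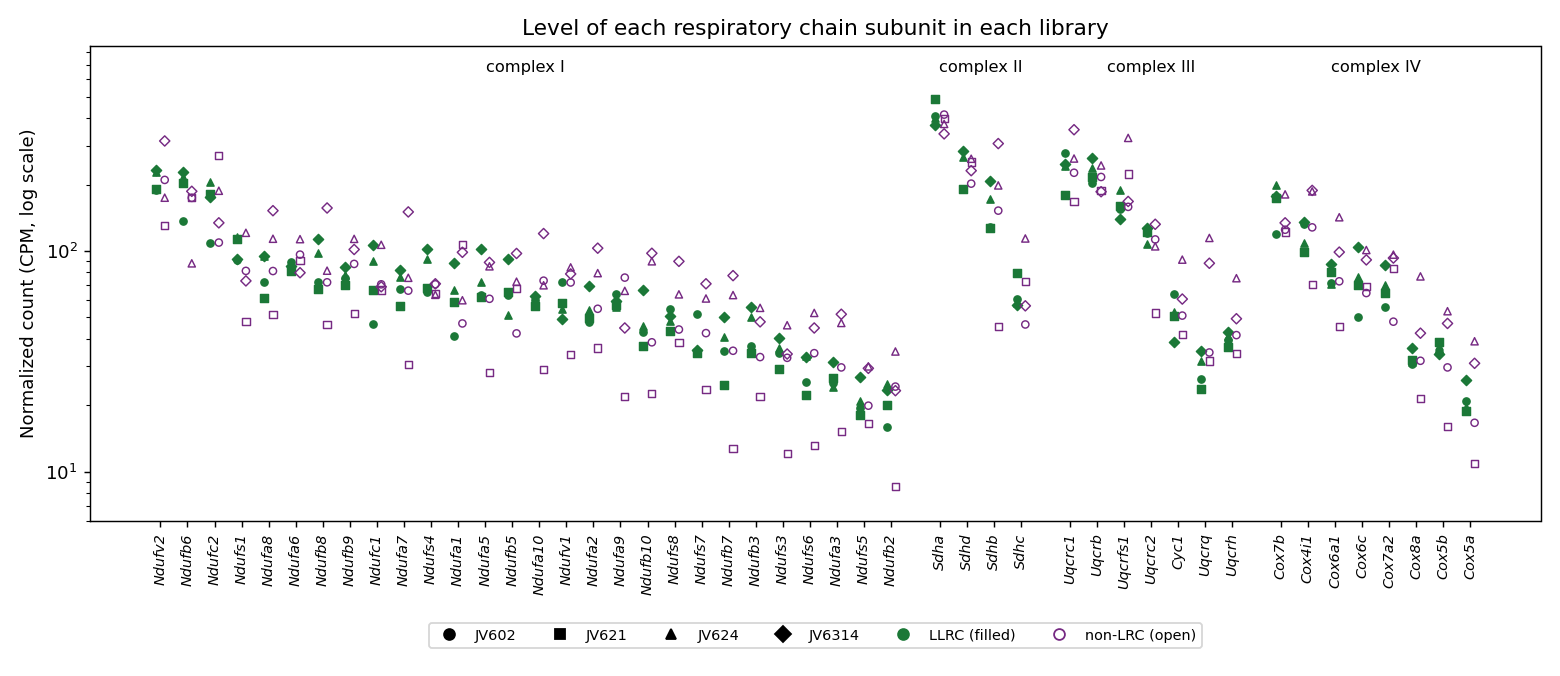
Normalized counts of each subunit (CPM, log scale, not divided by length) are plotted for the 8 libraries, with filled green symbols for LLRCs, open purple symbols for non-LRC cells and a symbol shape for each mouse. The groups overlap for all 47 subunits, and the open squares of JV621 are often the lowest points while the open triangles and diamonds of JV624 and JV6314 are often the highest.

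Complex I, the entry point for electrons from NADH, summed to 2027 ± 262.3 CPM in LLRCs against 2100 ± 501.5 CPM in non-LRC cells (mean ± SD, n = 4 each). Of its 28 subunits 20 had a fold change below 0, with a median of -0.16, which was 0.003 without the non-LRC library of JV6314 and -0.26 without that of JV621. Ndufb6, an accessory subunit of the distal membrane arm (chr4:40270591-40279421, minus strand, GRCm38), had the highest level per length. Its levels in JV602, JV621, JV624 and JV6314 were 137.1, 202.4, 217.5 and 228.5 CPM in LLRCs against 174.2, 174.2, 87.9 and 186.5 CPM in non-LRC cells. LLRCs were higher in 3 of 4 mice, and the groups overlapped. The log2 fold change was 0.33 (SE 0.31, 95% interval -0.36 to 1.03, edgeR adjusted p = 0.9999), and it was 0.13 without the non-LRC library of JV624. Counting ignored the strand, and 39.0% of the exon bases of Ndufb6 overlap Smim27 on the opposite strand. Union mode gives a read that meets both genes to neither, so the levels of such genes are uncertain. Overlaps of over 10% with the opposite strand were found for 5 of the 47, the others being Uqcrc2 (19.7%, Pdzd9), Cox5a (12.8%), Ndufb5 (12.3%, Mrpl47) and Ndufa2 (11.5%, Tmco6), and Ndufb9 shares 19.5% with a gene on its own strand.

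Ndufs1, the core subunit that carries iron-sulfur clusters in the NADH-oxidizing arm (chr1:63143596-63176833, minus strand), had the highest fold change of complex I. Its levels in the same order of mice were 90.9, 113.5, 115.9 and 92.0 CPM in LLRCs against 81.3, 48.0, 120.9 and 73.2 CPM in non-LRC cells. The non-LRC library of JV621 stood low, and that of JV624 was the highest of the 8. Its log2 fold change was 0.35 (SE 0.31, 95% interval -0.36 to 1.06, edgeR adjusted p = 0.9999), and it was 0.18 without the non-LRC library of JV621 and 0.61 without that of JV624. Ndufa3, a small accessory subunit of the proximal membrane arm (chr7:3617373-3620327, plus strand), had the lowest fold change of the complex. Its levels were 25.3, 26.5, 24.3 and 31.4 CPM in LLRCs against 29.7, 15.2, 47.2 and 51.7 CPM in non-LRC cells. The LLRC values lay close together inside the wide range of the non-LRC values. For Ndufa3 the log2 fold change was -0.42 (SE 0.41, 95% interval -1.34 to 0.50, edgeR adjusted p = 0.9999), and it was -0.19 without the non-LRC library of JV6314 and -0.66 without that of JV621.

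By their place in complex I, the 7 accessory subunits of the proximal membrane arm were all below 0, with a median of -0.29. Those were Ndufa1, Ndufa3, Ndufa8, Ndufa10, Ndufc1, Ndufc2 and Ndufs5. Of the 8 subunits of the NADH-oxidizing arm 5 were below 0 (median -0.18), and of the 8 of the distal membrane arm 6 were below 0 (median -0.07). The junction that reduces quinone (Ndufs3, Ndufs7, Ndufs8, Ndufa5 and Ndufa9) had 3 of 5 above 0, with a median of 0.16. Between the libraries of a mouse, LLRCs were higher for all 5 of the junction in JV621 (median log2 ratio 1.13) and for 0 of 5 in JV624 (median -0.34). None of these subunits passed the test, and the division into arms was made after the values were seen.

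Complex II, which also acts in the citric acid cycle, summed to 873.0 ± 58.4 CPM in LLRCs against 867.9 ± 88.3 CPM in non-LRC cells. Of its 4 subunits 3 were below 0, with a median of -0.08, which was 0.07 without the non-LRC library of JV624 and, with all libraries kept, 0.03 under limma voom and 0.03 with the mouse as a block. Without the non-LRC library of JV602 that median was -0.16. Sdhd, a membrane anchor (chr9:50596357-50603812, minus strand), had the highest level per length, and its levels were 190.9, 191.0, 268.1 and 284.7 CPM in LLRCs against 202.0, 252.9, 261.9 and 231.3 CPM in non-LRC cells. The log2 fold change of Sdhd was -0.02 (SE 0.24, 95% interval -0.57 to 0.53), and the LLRC values enclosed the non-LRC values. Sdha, the flavoprotein that oxidizes succinate (chr13:74322254-74350280, minus strand), was the highest of the 47 in CPM, with 408.2, 489.2, 399.0 and 372.0 CPM in LLRCs against 415.2, 399.7, 376.6 and 339.6 CPM in non-LRC cells.

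The log2 fold change of Sdha was 0.12 (SE 0.22, 95% interval -0.36 to 0.61), and LLRCs were higher in 3 of 4 mice. With the trend over the GC content of transcripts removed from each library, a step added after the data were seen, it was -0.02. Sdhc, the other membrane anchor (chr1:171127165-171150603, minus strand), had levels of 60.8, 79.4, 58.2 and 56.8 CPM in LLRCs against 46.5, 72.7, 114.0 and 56.4 CPM in non-LRC cells. It too was higher in LLRCs in 3 of 4 mice, while the mean was lower in LLRCs, with the non-LRC library of JV624 standing high. For Sdhc the log2 fold change was -0.18 (SE 0.33, 95% interval -0.93 to 0.57), and it was 0.12 without that library. The edgeR adjusted p was 0.9999 for each of the named subunits of complex II.

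Complex III summed to 868.5 ± 53.4 CPM in LLRCs against 959.5 ± 212.4 CPM in non-LRC cells, and 5 of its 7 subunits were below 0, with a median of -0.25, which was -0.06 without the non-LRC library of JV624. That median was -0.38 without the non-LRC library of JV621 and -0.41 without mouse JV602. Uqcrq, a small accessory subunit next to cytochrome b (chr11:53427922-53430831, minus strand), differed most of the 47. Its levels were 26.2, 23.8, 31.6 and 35.3 CPM in LLRCs against 34.7, 31.7, 114.6 and 88.0 CPM in non-LRC cells. LLRCs were lower in 4 of 4 mice, and by much more in JV624 and JV6314 than in the other mice. The means were 29.2 ± 5.22 and 67.3 ± 40.8 CPM, and the log2 fold change was -1.20 (SE 0.46, 95% interval -2.24 to -0.16). The unadjusted p of the edgeR test was 0.0277, the adjusted p 0.841 and the two-sided exact permutation p 0.114. Without the non-LRC library of JV624 the log2 fold change was -0.82. Uqcrfs1 was the other subunit that was lower in LLRCs in 4 of 4 mice, with an unadjusted edgeR p of 0.161, and it was singled out after its values were seen.

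Uqcrb, which takes part in binding ubiquinone (chr13:66900617-66905378, minus strand), had the highest level per length of complex III. Its levels were 203.6, 215.4, 236.9 and 264.7 CPM in LLRCs against 216.5, 188.8, 244.2 and 185.7 CPM in non-LRC cells, and the log2 fold change was 0.14 (SE 0.22, 95% interval -0.36 to 0.64). The groups overlapped, with the non-LRC libraries of JV621 and JV6314 below all LLRC libraries and the LLRC library of JV6314 above all non-LRC libraries. With the same trend removed, the log2 fold change of Uqcrb was -0.20. Uqcrb has 3 near-identical pseudogenes, which together held 215.0 CPM beside 219.5 CPM for the gene, so its own share is uncertain. Near-identical pseudogenes were found for 6 of the 47 (Uqcrb, Ndufs3, Ndufs5, Ndufs6, Cox6c and Cox7b), and for Ndufs5 the copy held more than the gene, with 29.1 against 22.6 CPM. Uqcrc2, a core protein of the matrix side (chr7:120635176-120659524, plus strand), had levels of 120.3, 122.3, 107.1 and 127.1 CPM in LLRCs against 112.8, 52.4, 105.0 and 132.2 CPM in non-LRC cells. Its log2 fold change was 0.24 (SE 0.31, 95% interval -0.45 to 0.94), and apart from the low non-LRC library of JV621 the 8 values were close. Without that library the log2 fold change was 0.04. The edgeR adjusted p was 0.9999 for both genes.

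Complex IV summed to 598.8 ± 71.7 CPM in LLRCs against 639.2 ± 198.5 CPM in non-LRC cells, and 7 of its 8 subunits were below 0, with a median of -0.20. Without the non-LRC library of JV624 that median was 0.06, and without that of JV621 it was -0.34. Cox7b, a small accessory subunit (chrX:106015700-106022450, plus strand), was both the highest per length and the only one above 0 in this fit. Its levels were 119.5, 174.5, 199.7 and 177.8 CPM in LLRCs against 124.9, 121.9, 180.6 and 134.2 CPM in non-LRC cells. LLRCs were higher in 3 of 4 mice, and the log2 fold change was 0.26 (SE 0.26, 95% interval -0.33 to 0.85, edgeR adjusted p = 0.9999). It was 0.40 without the LLRC library of JV602, and it turned to -0.10 with the trend over GC content removed from each library. Cox8a, another small accessory subunit (chr19:7215153-7217616, minus strand), had levels of 30.6, 32.1, 31.5 and 36.4 CPM in LLRCs against 31.8, 21.5, 76.7 and 42.4 CPM in non-LRC cells. The LLRC values hardly varied, and the non-LRC library of JV624 stood high. The log2 fold change of Cox8a was -0.40 (SE 0.41, 95% interval -1.32 to 0.51, edgeR adjusted p = 0.9999), and it was 0.03 without that library.

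The direction of the subunits differed from mouse to mouse. Summed over the 47, the levels in JV602, JV621, JV624 and JV6314 were 3959, 4109, 4566 and 4837 CPM in LLRCs against 4053, 3484, 5343 and 5386 CPM in non-LRC cells. The LLRC sums lay inside the range of the non-LRC sums. The means were 4368 ± 405.5 and 4567 ± 950.4 CPM. Between the libraries of a mouse, LLRCs were higher for 19 of the 47 in JV602, 38 in JV621, 11 in JV624 and 17 in JV6314. As percentages these were 40.4, 80.9, 23.4 and 36.2, against 50.9, 59.4, 48.7 and 53.4 over all genes tested. The median log2 ratio of the 47 was -0.03, 0.48, -0.40 and -0.20 in the same order, with a mean over mice of -0.04 and an SD of 0.38. The direction in JV621 was opposite to that of JV624, and 0 of the 47 were higher in LLRCs in all 4 mice.

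The spread between mice was wider in non-LRC cells. The SD of the log2 level was larger in non-LRC cells for 41 of the 47 (87.2%), with a median of 0.25 in LLRCs against 0.59 in non-LRC cells. Over all genes tested the SD was larger in non-LRC cells for 83.6%, with medians of 0.45 and 0.94, so the share among the subunits was near that of all genes. The non-LRC libraries of JV624 and JV6314, in which the subunits summed highest, also held the highest sums of hepatocyte markers (6769 and 4975 CPM) and of stellate cell and fibroblast markers (2921 and 2431 CPM). Endothelial markers did not follow that order. Their sum was highest in the non-LRC library of JV621 (559.8 CPM, against 401.6 CPM in JV624 and 484.2 CPM in JV6314), where the subunits summed lowest. Pancreatic acinar markers summed to 1758 CPM in the non-LRC library of JV6314 and to between 2.13 and 22.4 CPM in the other libraries. The part of these cells in the levels of the subunits was not tested. In libraries of sorted cells, fewer cells of a type and less RNA per cell cannot be told apart.

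**Figure D3:**
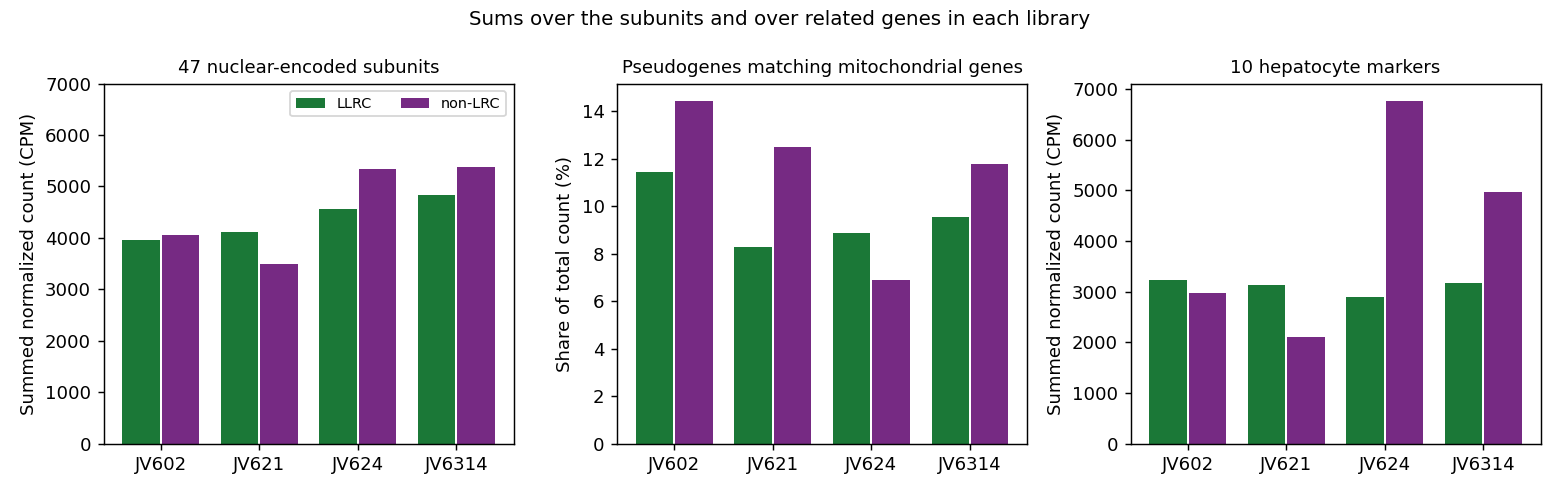
Bars give, for each mouse, the LLRC library (green) and the non-LRC library (purple): the summed normalized count of the 47 subunits (left, CPM), the share of the total count on pseudogenes that match mitochondrial genes (middle, %) and the summed normalized count of 10 hepatocyte markers (right, CPM). The subunits sum to between 3484 and 5386 CPM, and the non-LRC libraries of JV624 and JV6314 are the highest in both the left and the right panel.

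The base composition of the transcripts moved with the ratios in part of the mice. Across the 47 subunits, whose GC content ran from 41.3% to 61.4%, the Spearman correlation of GC content with the log2 ratio of a mouse's libraries was 0.23 in JV602, 0.24 in JV621, -0.51 in JV624 and -0.69 in JV6314 (n = 47 genes, which share their libraries). Over the 13561 tested genes with a GC content the values were 0.21, 0.03, -0.37 and -0.19. Of the 16 subunits of lowest GC content 8 had a fold change below 0, with a median of -0.00. Of the 15 between, 11 were below 0 (median -0.11), and of the 16 of highest GC content all 16 were below 0 (median -0.23). With the trend over GC content removed from each library, the median of the 47 was -0.20 and that of all genes -0.17, so the difference between them fell from -0.15 to -0.04. The number of subunits below the median of all genes was 34 without that step and 29 with it. With the mouse as a block as well, the difference was -0.17, and 37 subunits lay below the median of all genes, against -0.23 and 38 with the block and no removal of the trend. The part of base composition in the fold changes was not tested further.

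**Figure D4:**
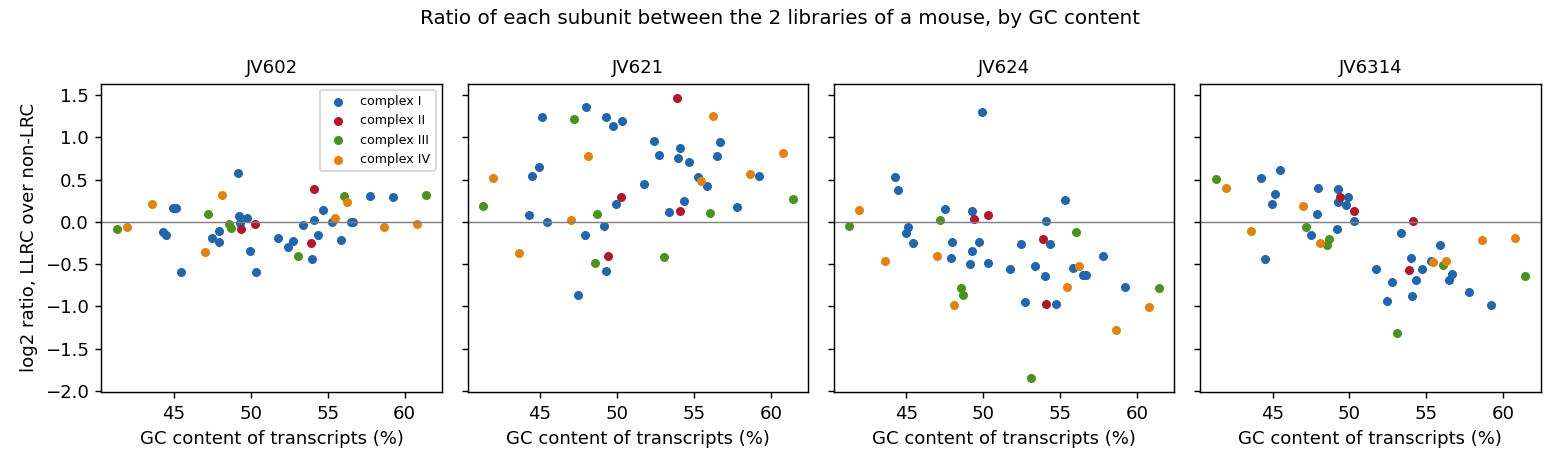
Each panel is 1 mouse, and each point 1 of the 47 subunits, with the GC content of its transcripts (%) against its log2 ratio of LLRC over non-LRC, coloured by complex. The points fall with GC content in JV624 and JV6314 (Spearman -0.51 and -0.69) and not in JV602 and JV621 (0.23 and 0.24), and in JV621 most lie above 0.

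Many nuclear respiratory genes are known targets of the factors NRF1, GABP (of the ETS family) and YY1, whose recognition sequences lie near the start of transcription. A window of 300 bases, 250 before and 50 after the start, was given by RefSeq (GRCm38.p6) for 37 of the 47 subunits, as 39 windows. It was searched on both strands for GCGCATGCG (NRF1), ACCGGAAG (ETS), AAGATGGCG (YY1) and GGGGCGGGG (SP1). The matches to the first 3 are shown, since their letters were in a larger share of these windows than of all windows of tested genes, each on the strand of its gene with up to 10 bases on either side and the match in capitals.
Cox6a1 NRF1 chr5:115349102-115349130 minus strand: caggaacgggGCGCATGCGcgctctcgct
Ndufa8 NRF1 chr2:36049329-36049357 minus strand: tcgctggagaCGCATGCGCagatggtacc
Uqcrc1 NRF1 chr9:108936668-108936696 plus strand: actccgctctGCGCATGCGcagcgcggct
Ndufb6 ETS chr4:40279636-40279663 minus strand: cgtccttgttCTTCCGGTcccctcccct
Ndufs3 ETS chr2:90904703-90904730 minus strand: cacatttccaCTTCCGGTccgtgccctt
Ndufs8 ETS chr19:3912742-3912769 minus strand: taggctccgcCTTCCGGTtgaaccgcat
Sdhb ETS chr4:140961266-140961293 plus strand: gctcggagaaACCGGAAGcggccttcca
Sdhd ETS chr9:50603878-50603905 minus strand: cgtctcctgcCTTCCGGTtcacgcttca
Ndufa9 YY1 chr6:126849097-126849125 minus strand: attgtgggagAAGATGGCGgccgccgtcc
Ndufc1 YY1 chr3:51408915-51408943 minus strand: cctgcggaacAAGATGGCGccgtccgtag
Ndufs4 YY1 chr13:114388045-114388069 minus strand: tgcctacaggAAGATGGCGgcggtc
Ndufs6 YY1 chr13:73328433-73328459 minus strand: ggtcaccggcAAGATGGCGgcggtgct
Ndufs7 YY1 chr10:80249463-80249491 plus strand: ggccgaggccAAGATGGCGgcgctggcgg

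The NRF1 letters overlapped on both strands in Cox6a1 and Uqcrc1, and only the match on the strand of the gene is printed. Windows with the NRF1 letters were 3 of 39 (7.69%), against 1.75% of all 32851 windows and 3.53% of the 11834 windows of tested genes. The ETS letters were in 5 windows (12.8%, against 2.30% and 4.76%) and the YY1 letters in 5 other windows (12.8%, against 1.40% and 3.05%), all 5 of complex I and all after the start. Complex I makes up 28 of the 47 subunits, and the place of the letters in other windows was not examined. The SP1 letters were in 5 windows (12.8%), against 11.4% of all windows and 20.5% of those of tested genes. At least 1 of the 4 was in 16 windows (41.0%, against 15.7% and 29.0%). These are matches of letters and not measured sites. The regulators themselves did not pass the test: of 12 tested, 7 were above 0 and 5 below, with a median of 0.17. Ppargc1a, a coactivator of mitochondrial genes, had 62.4 ± 9.44 CPM in LLRCs against 36.3 ± 31.6 CPM in non-LRC cells (log2 fold change 0.78, edgeR adjusted p = 0.9999). Tfam, which packages and transcribes mitochondrial DNA, had 30.3 ± 7.08 and 51.5 ± 28.1 CPM (log2 fold change -0.77, edgeR adjusted p = 0.9999), and Sp1 58.6 ± 6.65 and 53.4 ± 37.3 CPM.

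The 13 subunits encoded in mitochondrial DNA could not be set beside the nuclear ones, because they were listed at 0 in all 8 libraries, as were all 37 genes of that chromosome. Nuclear sequences that match some of these genes did hold counts. By alignment, made after these zeros were seen, 11 pseudogenes in the nuclear genome matched 9 mitochondrial genes at 95% identity or more, and 7 of them lie in chr1:24611535-24616197 (GRCm38). One of these, Gm10925, is 100% identical to mt-Atp6 over 678 bases. The 11 pseudogenes held 11.5, 8.26, 8.85 and 9.53% of all counts in LLRCs against 14.4, 12.5, 6.91 and 11.8% in non-LRC cells, in the order of mice above. LLRCs were lower in all mice but JV624, and the two-sided exact permutation p was 0.314. All 11 had a fold change below 0, with a median of -0.30 and a range from -0.57 to -0.11, and 0 of the 11 had an unadjusted edgeR p under 0.05. Which molecules gave these reads was not tested.

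The other genes of the pathway did not pass the test either. Of 14 tested subunits outside the 47, 4 were above 0 and 10 below (median -0.16), and 0 passed. Their highest level was that of Ndufa4, a subunit of complex IV despite its name, with 391.0 ± 53.4 CPM in LLRCs against 324.8 ± 39.0 CPM in non-LRC cells. Ndufab1, the mitochondrial acyl carrier protein, had their highest log2 fold change (0.65) and Uqcr11 of complex III their lowest (-0.40). Cox6b1 of complex IV was at -0.19. Of the 15 subunits of ATP synthase 3 were above 0 and 12 below (median -0.25), from Atp5g3 of the membrane ring at 0.36 to Atp5e of the catalytic head at -0.79. The highest were Atp5a1, with 413.6 ± 52.8 CPM in LLRCs against 469.0 ± 121.7 CPM in non-LRC cells, Atp5b and Atp5j.

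Of 40 tested assembly factors 18 were above 0 and 22 below (median -0.15). Sco1, a copper chaperone for complex IV, had 22.5 ± 8.19 CPM in LLRCs against 8.75 ± 6.95 CPM in non-LRC cells (log2 fold change 1.36, edgeR adjusted p = 0.983). Coa5, also needed for complex IV, had 62.6 ± 15.2 and 128.4 ± 96.7 CPM (log2 fold change -1.04, edgeR adjusted p = 0.993). The largest fold changes of either sign thus belonged to factors of the same complex, and neither passed the test. Ndufaf4 and Coa3, the other assembly factors of highest level, were at -0.39 and 0.17. Of 14 genes of cytochrome c and coenzyme Q synthesis 7 were above 0 and 7 below (median -0.01). Cycs, cytochrome c itself, had a mean of 251.6 CPM in LLRCs against 247.7 CPM in non-LRC cells, with ranges from 150.2 to 340.6 CPM and from 172.2 to 308.6 CPM, and Coq4 and Coq10a had the highest and lowest fold change of that list (0.85 and -0.84).

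Among the 16 genes of pyruvate dehydrogenase and the citric acid cycle 8 were above 0 and 8 below, with a median of 0.00. Suclg2, a subunit of succinyl-CoA ligase, was the highest at 0.44, and Dlat, a subunit of pyruvate dehydrogenase, the lowest at -0.82. Sucla2, Dld and Mdh2, the highest in level, were at 0.33, -0.01 and -0.09. Of 15 tested genes of glycolysis 5 were above 0 and 10 below (median -0.13). Slc2a1, the glucose transporter GLUT1, had 28.9 ± 8.84 CPM in LLRCs against 14.6 ± 5.32 CPM in non-LRC cells (log2 fold change 0.98, unadjusted p of 0.0383 and adjusted p of 0.917 in the edgeR test), and Pkm was the lowest at -0.68. Eno1, Aldoa and Ldha, the highest in level, were at 0.24, -0.02 and -0.48. No gene of these lists passed the adjusted threshold.

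The isoforms of complex IV that are known from muscle, testis and lung were low or listed at 0. Cox7a1, the heart and muscle form, had 7.10 ± 2.60 CPM in LLRCs against 7.36 ± 1.86 CPM in non-LRC cells (log2 fold change -0.06). Cox7a2, the form found in liver, had 69.2 ± 13.0 and 80.1 ± 22.2 CPM. Of the 8 such isoforms 7 were too low to be tested and 3 (Cox6a2, Cox7b2 and Cox8c) had no count in any library.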

How the data were processed

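Raw counts were used. Reads were mapped at a service facility with an aligner that is not given in the sources used here, and the authors counted them with HTSeq (union mode, ignoring strand) over the exons of Ensembl genes in GRCm38.p4. The deposited counts cover 46603 genes, are not normalized and were not pooled over replicates. A second deposited table holds the authors' own edgeR 3.2.4 comparison (log2 fold changes, mean abundance, p-values and adjusted p-values) and was not used. The 8 libraries were grouped by their labels into 4 LLRC and 4 non-LRC libraries.

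Genes were filtered with filterByExpr, which left 13605, scaled by TMM and tested with the edgeR quasi-likelihood test (edgeR 4.0.16, R 4.3.3) on a model of group alone, adjusting p by Benjamini-Hochberg over all genes tested at a threshold of 0.05. Log2 levels and per-mouse ratios used a prior count of 2. DESeq2 1.42.0 and limma 3.58.1 served as alternatives. The fits were also run on simulated counts that held no mouse effect and no trend over GC content. Their outcome is not reported here, and nothing is drawn from it. A floor of 3 counts corresponded to between 0.305 and 0.642 CPM. Intervals are at 95%. Symbols and coordinates came from GENCODE M21 for GRCm38 for 46091 identifiers, and 512 had none. GC content was taken from annotated transcripts, and pseudogenes were matched with BLAST 2.17.0 at 95% identity over 80% of their length.

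The libraries of a mouse come from the same animal, as the labels show, so the mouse numbers pair them. Their deviations from the group means correlated at 0.096, 0.074, 0.003 and 0.171 across genes for JV602, JV621, JV624 and JV6314. The study's methods name no block, so the mouse was a block only in an alternative. Other alternatives were 2 filters, 3 scalings, 3 tests, each library and each mouse left out and, added after the data were seen, removal of a GC trend or of the pseudogenes.

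The subunits and the gene lists were chosen with earlier results of these data known. In each complex the subunits named were those with the highest level per length and the highest and lowest fold change, and in each list the genes with the highest and lowest fold change and the 3 of highest level, with marker lists given as sums; 1 gene of these lists is not reported here. RefSeq promoter windows were not used here for Uqcrq, Cox4i1, Sdhc, Ndufb9, Uqcrb, Cox6c, Cyc1, Ndufa2, Ndufs1 and Uqcrc2.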

Additional observations from a re-analysis of the deposited data

Results flagged for a closer look

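Of 94 groups of 4 libraries examined (each subunit in each cell type), 3 held a value far from the other 3 by Dixon's criterion at 95%, where chance gives about 1 in 20, or 4.7. Ndufb6 had 87.9 CPM in the non-LRC library of JV624, against 174.2 to 186.5 CPM in the other non-LRC libraries. Ndufc1, an accessory subunit of the membrane arm of complex I, had 106.7 CPM in the same library, against 66.6 to 70.6 CPM in the others. Ndufs7, a core subunit of complex I that passes electrons to ubiquinone, had 52.1 CPM in the LLRC library of JV602, against 34.7 to 35.8 CPM in the other LLRC libraries.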

How the results depend on the processing

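The number of subunits called was 0 under all 24 alternatives, with a smallest adjusted p of 0.299 (DESeq2). The number of genes called, 0 as reported, was 11 (1 higher and 10 lower in LLRCs) without an expression filter, 221 (49 and 172) with DESeq2 and 154 (31 and 123) with the edgeR exact test, and ranged from 0 to 6 with a library or mouse left out, 6 being without the non-LRC library of JV602. With the mouse as a replicate block 0 subunits and 0 genes were called, the median of the 47 was -0.09 beside 0.14 for all genes, and no call changed. The median of the 47 stayed below 0 throughout, from -0.30 (library size only) to -0.03. The median of all genes was 0.16 under limma voom. Complex II ranged from -0.16 to 0.068 with a library or mouse left out, being 0.068 without the non-LRC library of JV624, and with all libraries kept it was 0.031 under limma voom and 0.026 with the replicate block. Complexes I and IV reached 0.003 (without the non-LRC library of JV6314) and 0.094 (without mouse JV624). At the other end they were -0.26 and -0.34, without the non-LRC library of JV621. Complex III ranged from -0.41 (without mouse JV602) to -0.06 (without the non-LRC library of JV624). With libraries left out, Sdhd ranged from -0.14 to 0.10, Sdhc from -0.35 to 0.17 and Cox8a from -0.61 to 0.052, and the signs of Sdhc and Cox8a turned without the non-LRC library of JV624. Sdhd was 0.021 without a filter and 0.0050 with a minimum of 1 CPM. With the GC trend removed, Sdha, Uqcrb and Cox7b were -0.023, -0.20 and -0.096, and with the replicate block added -0.00068, -0.18 and -0.062. The causes were not tested. The other named subunits kept their sign with libraries or mice left out, within 0.088 to 0.52 for Ndufb6, 0.12 to 0.61 for Ndufs1, -0.66 to -0.19 for Ndufa3, 0.048 to 0.18 for Sdha, 0.016 to 0.22 for Uqcrb, 0.025 to 0.41 for Uqcrc2, -1.42 to -0.82 for Uqcrq and 0.17 to 0.40 for Cox7b. The intervals of 24 of the 47 reach past a change of 1 on the log2 scale.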

Other observations

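Marker genes of other liver cell types, which are not part of the respiratory chain, were measured in the same libraries, and no gene passed the adjusted threshold of the edgeR quasi-likelihood test. All 8 tested endothelial markers had a lower level in LLRCs (median log2 fold change -3.41) with an unadjusted p under 0.05, against 3.56% of all genes tested. Tek, the angiopoietin receptor, had 4.65 ± 1.51 CPM in LLRCs against 60.3 ± 19.8 CPM in non-LRC cells (adjusted p = 0.0809). Of 10 hepatocyte markers 9 were below 0 (median -1.71), 7 with an unadjusted p under 0.05 against the same 3.56%, while Alb was at 0.01. Of 6 tested stellate cell and fibroblast markers 5 were below 0 (median -2.15), with Lrat at -2.98 and Reln at 0.32. Of 11 cholangiocyte markers 8 were above 0 (median 0.28), and Cftr, the chloride channel of the bile duct, had 148.7 ± 55.5 against 55.0 ± 30.0 CPM (adjusted p = 0.688). Of 3 tested leukocyte markers 1 was above 0 and 2 below (median -0.15), and Ptprc, which encodes the CD45 of the sort, was the 1 above 0, with 3.28 ± 2.62 against 0.345 ± 0.691 CPM and an unadjusted p of 0.0468 in the edgeR test, where 1.6% of all genes tested were higher with a p under 0.05.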
